A study of Mus musculus with 8 samples.

Results

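The SLAM family receptors and their SAP adaptor were examined at the transcript level in CD8+CD44+PD-1+ T cells from MC38 tumors with or without the histone demethylase LSD1. The 7 genes were chosen by name, with earlier results of these data known. They were *Slamf1*, *Slamf6*, *Slamf7*, *Cd48*, *Cd84* and *Ly9*, which encode 6 cell surface receptors, and *Sh2d1a*, which encodes the adaptor SAP. All 7 were among the 55335 genes of the count table and all 7 were among the 15378 genes tested. MC38 is a mouse colon carcinoma line that was implanted into C57BL/6 mice. The WT group held 4 samples from Lsd1f/f mice, which carry the floxed allele without Cre, with TILs of 2 mice combined in each. The KO group held 4 samples from Cd4-Cre+Lsd1f/f mice, 1 mouse per sample, in which Cre is driven by *Cd4* regulatory sequence and so deletes in both CD4+ and CD8+ T cells from the thymus onward. Cells were taken on day 18 after implantation by the sample labels and the study's methods (the design text gives 14 days), no drug or antibody treatment is stated, and the study's methods give the age of its mice as 6 to 10 weeks. About 10000 to 20000 sorted cells per sample gave rRNA-depleted RNA for sequencing. The WT samples carry the names S1, S2, S3 and S4, and the KO samples S5, S6, S7 and S8. Because each WT sample pools 2 mice and each KO sample is 1 mouse, the spread of the groups does not measure the same thing.

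SLAM family receptors are immunoglobulin-like proteins of lymphocytes and other blood cells. Most of them bind the same receptor on a neighboring cell, so that cells of one kind can signal to each other. The cytoplasmic tails of several members carry tyrosine motifs that recruit SAP, a small SH2 domain protein which brings the kinase Fyn, or, where SAP does not occupy them, phosphatases such as SHP-1 and SHP-2. CD48 is different: it is anchored in the membrane by a lipid, has no tail that could bind SAP, and serves as a ligand of CD244 and, in mice, of CD2. In tumors and chronic infection, Slamf6 (Ly108) is used as a surface marker of TCF1+ progenitor exhausted CD8+ T cells, and CD244 is a receptor that accumulates on exhausted cells.

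The upstream sequences of the 2 receptor genes called higher in KO cells are shown because these genes share a cluster on chromosome 1, and that of *Cd48* because it had the lowest fold change among the 6 receptors. Of the 7 genes, 5 had a window in the RefSeq promoter sequences (GRCm38.p6), and the *Ly9* and *Sh2d1a* windows were not among them. Each line gives the 250 bases before RefSeq's gene start on the plus strand, 5′ to 3′, for *Slamf6* at chr1:171917212-171917461, *Slamf1* at chr1:171766882-171767131 and *Cd48* at chr1:171681742-171681991. Capitals mark the letters CTTTGA, a form of the core of the TCF/LEF motif, or TCAAAG, the same form on the other strand.
Slamf6: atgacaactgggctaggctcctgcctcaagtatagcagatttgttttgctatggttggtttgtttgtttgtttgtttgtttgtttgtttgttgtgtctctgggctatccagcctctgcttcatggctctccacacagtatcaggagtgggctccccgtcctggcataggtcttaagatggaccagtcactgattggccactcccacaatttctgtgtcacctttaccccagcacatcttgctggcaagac
Slamf1: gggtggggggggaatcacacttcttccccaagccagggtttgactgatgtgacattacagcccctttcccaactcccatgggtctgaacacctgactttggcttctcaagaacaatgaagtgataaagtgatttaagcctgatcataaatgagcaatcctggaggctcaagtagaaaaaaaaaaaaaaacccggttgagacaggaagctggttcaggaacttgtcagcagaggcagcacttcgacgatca
Cd48: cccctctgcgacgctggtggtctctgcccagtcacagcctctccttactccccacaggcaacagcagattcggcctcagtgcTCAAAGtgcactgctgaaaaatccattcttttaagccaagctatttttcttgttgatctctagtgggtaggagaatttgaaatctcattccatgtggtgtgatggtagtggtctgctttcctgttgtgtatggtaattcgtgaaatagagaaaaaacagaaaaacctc
This form was found once in the *Cd48* window, 168 bases before the gene start, and 0 times in the windows of *Slamf6*, *Slamf1*, *Slamf7* and *Cd84*. It occurred in 13.8% of the 32851 windows of this length. The search covered these exact letters in 250 bases only, not other forms of the motif, and does not show whether TCF1 binds a gene. The study names *Slamf6* as a TCF1 target, and assigned TCF1 binding sites to genes over a wider stretch on both sides of the gene start. The GC content of the windows was 48.4% for *Slamf6*, 47.2% for *Slamf1* and 46% for *Cd48*.

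Sequencing depth was 11657807 to 30295406 counts per sample, so that 3 counts correspond to 0.099 to 0.257 CPM (counts scaled to library size), and all 7 genes were far above this floor in every sample. CPM values were scaled with TMM factors, which correct for differences in library composition. A gene was called where edgeR's quasi-likelihood test gave a p under 0.01 after Benjamini-Hochberg adjustment over all tested genes and the fold exceeded 1.5. *Kdm1a*, which encodes LSD1, averaged 44.8 ± 1.88 CPM in WT and 30.6 ± 4.02 CPM in KO cells (SD, n = 4 each), with a log2 fold change of -0.55 (SE 0.14, adjusted p = 0.0163), short of the call, and its groups did not overlap. Counts cover the whole gene, so that transcripts that lack only the floxed exons still count. The labeled cell type was checked by its markers: *Cd8a* was at 1010 to 1408 CPM and *Cd3e* at 309 to 417 CPM over the 8 samples. Of 7 CD8 T cell markers, 1 was called higher, the sort marker *Cd44* (log2 fold change 0.86, adjusted p = 0.000107), and 0 were called lower. Their median log2 fold change was -0.27, and *Cd8b1* was lower without overlap but not called (log2 fold change -0.39, adjusted p = 0.0158). Of 4 epithelial markers of tumor cells, *Krt8* and *Krt19* were at 0 in every sample and the sum did not exceed 1.33 CPM.

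Markers of macrophages and antigen-presenting cells differed between the groups, and their part in the results below was not tested beyond the values given here. Of 17 such markers, 16 were tested and 11 were called lower in KO, none was at 0 in all samples, and their summed level was 462 to 1386 CPM in WT and 234 to 341 CPM in KO samples. *Lyz2*, for example, was at 54.7 to 144 CPM in WT and 5.72 to 16.4 CPM in KO samples. The mean log2 CPM over the 17 markers, used below as the macrophage marker score, ranged from 4.01 to 5.59 in WT, highest in S3, and from 1.90 to 2.76 in KO samples. The groups did not overlap in this score, so a fit with it as a covariate can hardly tell it from the genotype. Of 3 CD4 T cell markers, 1 was called higher: *Cd40lg*, at 1.89 to 3.02 CPM in WT and 7.91 to 18.4 CPM in KO samples (log2 fold change 2.42, adjusted p = 0.000126). *Cd4* (log2 fold change 1.65, adjusted p = 0.0161) and *Foxp3* (1.14, adjusted p = 0.370) were not called. The sum of these markers was 5.57 to 9.68 CPM in WT and 16.5 to 47.0 CPM in KO samples. Of 6 B cell markers, 3 were tested and *Ighm* was called lower, at 45.0 to 79.8 CPM in WT and 14.0 to 41.8 CPM in KO samples (log2 fold change -1.50, adjusted p = 0.00283), while *Cd79a* had a log2 fold change of 2.68 (adjusted p = 0.0773) and *Ms4a1* did not exceed 0.109 CPM. The summed B cell markers were at 46.8 to 81.5 CPM in WT and 16.0 to 44.5 CPM in KO samples. Of 5 NK cell markers, 3 were tested and 0 were called, with sums of 51.2 to 73.0 CPM in WT and 24.8 to 54.7 CPM in KO samples. *Eomes*, which activated CD8+ T cells also express, made up most of this sum (log2 fold change -0.86, adjusted p = 0.0477), *Klrb1c* was at 0 to 1.32 CPM in WT and 2.14 to 5.50 CPM in KO samples (3.12, adjusted p = 0.0338), and *Ncr1* did not exceed 0.983 CPM. In these bulk samples, a higher or lower share of cells that carry a transcript and more or less RNA of it per cell cannot be told apart.

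Among the 7 genes, *Slamf6* and *Slamf1* were called higher in KO cells, none was called lower, and 5 did not pass the call. Over all tested genes, 2.91% were called higher and 1.99% lower in KO. The 7 genes are not the whole family. Its further receptors *Cd244a* and *Slamf9* were called lower (log2 fold changes -1.48 and -2.42), and *Slamf8* (-2.11) was not called. The receptors *Slamf6*, *Slamf1*, *Cd84* and *Slamf7*, 4 in all, had every KO sample above every WT sample, as did 8.99% of tested genes, and none of the 7 had the reverse, with every KO sample lower, as did 8.27%. At an adjusted p under 0.01 with no threshold on the fold, 3 of the 7 were higher (*Slamf6*, *Slamf1* and *Cd84*), against 3.37% of tested genes, but *Cd84* did not stay under 0.01 in most fits with 1 sample left out. The median log2 fold change of the 7 was 0.47, and that of all tested genes was -0.01.

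**Figure D1:**
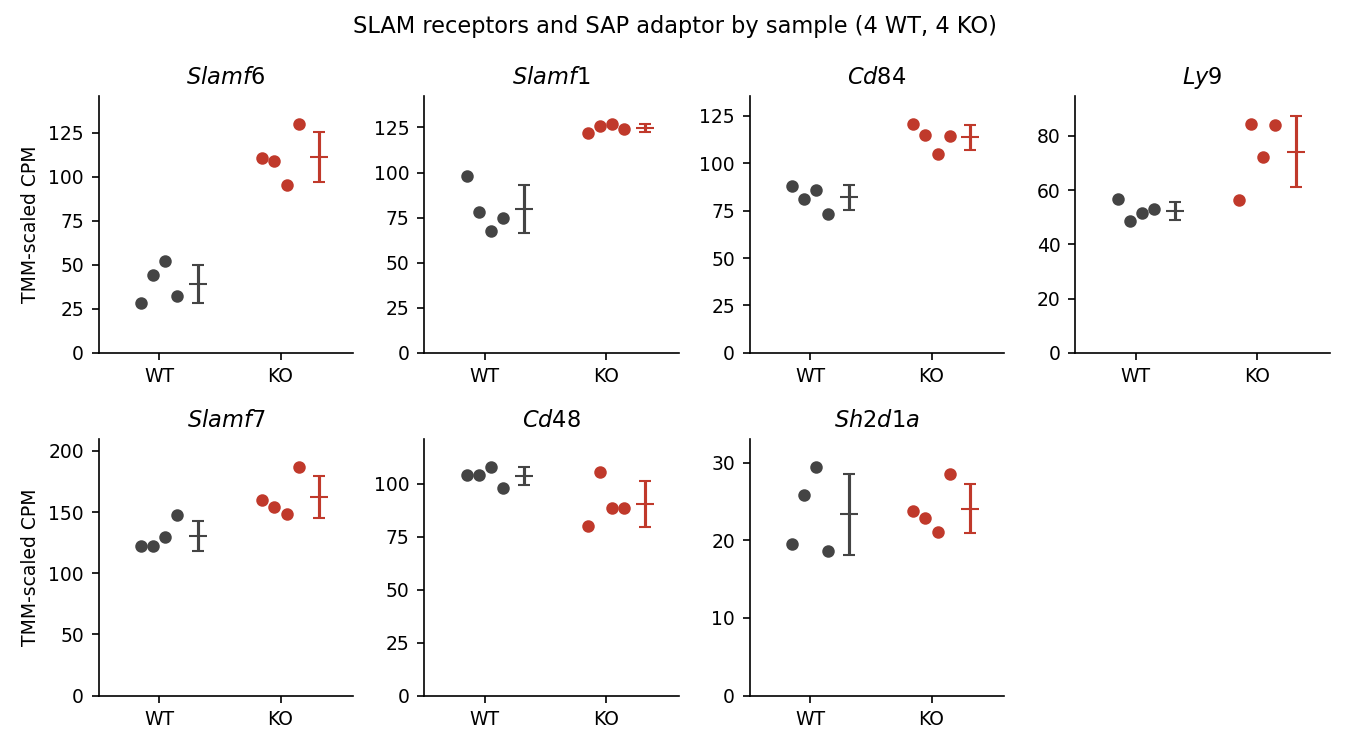
TMM-scaled CPM of the 6 SLAM receptor genes and *Sh2d1a* in each of 4 WT (gray) and 4 KO (red) samples, on linear axes from 0; the bar beside each group is the mean ± SD. *Slamf6* showed the widest gap, with KO samples between 95.6 and 130 CPM and WT samples between 28.2 and 51.9 CPM, while the groups of *Cd48*, *Ly9* and *Sh2d1a* overlapped.

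*Slamf6* encodes Ly108, a self-binding receptor with tyrosine motifs that bind SAP. The gene (ENSMUSG00000015314.10) lies on the plus strand of chromosome 1 of GRCm38 from 171917515 to 171953170. Its levels were 28.2, 44.2, 51.9 and 32.5 CPM in S1, S2, S3 and S4 (WT) and 111, 109, 95.6 and 130 CPM in S5, S6, S7 and S8 (KO). The lowest KO sample was well above the highest WT sample. The means were 39.2 ± 10.8 CPM for WT and 111 ± 14.2 CPM for KO cells (SD, n = 4 each), 2.84-fold apart (log2 fold change 1.51, SE 0.17, 95% interval 1.15 to 1.86, adjusted p = 1.47e-05). The exact two-sided permutation test on this gene gave p = 0.0286, the smallest value that 4 against 4 samples allow. Leaving out any 1 sample gave log2 fold changes of 1.38 to 1.67. With the macrophage marker score as a covariate, the log2 fold change was 2.16 and the adjusted p = 0.0168, outside the call.

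*Slamf1* encodes CD150, a self-binding receptor of activated lymphocytes that also signals through SAP. The gene (ENSMUSG00000015316.11) lies on the plus strand of chromosome 1 from 171767127 to 171801184. WT samples were at 98.3, 78.4, 67.5 and 74.8 CPM and KO samples at 122, 126, 127 and 124 CPM. The KO samples lay closely together and above all WT samples, of which S1 was the nearest. The means were 79.7 ± 13.2 CPM (SD, n = 4) and 125 ± 2.24 CPM (SD, n = 4), 1.56-fold apart (log2 fold change 0.64, SE 0.12, 95% interval 0.40 to 0.89, adjusted p = 0.00146). This fold is close to the threshold of 1.5, and the call was lost without S3 (log2 fold change 0.57, adjusted p = 0.00749) and with GC content offsets (0.58, adjusted p = 0.00305). With the macrophage marker score as a covariate, the log2 fold change was 0.17 (adjusted p = 0.871).

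*Cd84* encodes SLAMF5, a self-binding receptor found on T cells, B cells and myeloid cells. The gene (ENSMUSG00000038147.13) lies on the plus strand of chromosome 1 from 171839697 to 171890718. WT samples were at 88.0, 80.9, 85.8 and 73.3 CPM and KO samples at 121, 115, 105 and 114 CPM. The groups did not overlap. The means were 82.0 ± 6.49 CPM (SD, n = 4) and 114 ± 6.64 CPM (SD, n = 4), and the log2 fold change was 0.47 (SE 0.10, adjusted p = 0.00594). The adjusted p was under the threshold and the fold of 1.39 was not above 1.5, so *Cd84* was not called. The adjusted p was 0.0155 with GC content offsets, 0.0121 with scaling by library size alone, 0.465 with the macrophage marker score as a covariate, and 0.0102 to 0.0252 without any of S2 to S8.

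*Ly9* encodes SLAMF3 (CD229), a self-binding receptor of T and B cells. The gene (ENSMUSG00000004707.14) lies on the minus strand of chromosome 1 from 171588624 to 171607410. WT samples were at 56.7, 48.4, 51.4 and 52.8 CPM and KO samples at 56.2, 84.3, 72.3 and 83.8 CPM. KO sample S5 was within the WT range, and the others were above it. The means were 52.3 ± 3.41 CPM (SD, n = 4) and 74.2 ± 13.2 CPM (SD, n = 4), and the log2 fold change was 0.50 (SE 0.14, adjusted p = 0.0229; exact two-sided permutation test, p = 0.0571). S5 decided this call: without it the log2 fold change was 0.62 with an adjusted p = 0.00341, past both thresholds.

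*Slamf7* encodes CRACC (CD319), a self-binding receptor of cytotoxic lymphocytes whose signals are carried by the adaptor EAT-2 rather than SAP. The gene (ENSMUSG00000038179.13) lies on the minus strand of chromosome 1 from 171632403 to 171653035. WT samples were at 123, 122, 129 and 148 CPM and KO samples at 160, 154, 149 and 187 CPM. The groups did not overlap, but the highest WT sample, S4, nearly met the lowest KO sample, S7. The means were 130 ± 12.0 CPM (SD, n = 4) and 162 ± 17.1 CPM (SD, n = 4), and the log2 fold change of 0.32 (SE 0.11, adjusted p = 0.0646) did not pass the test.

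*Cd48*, the lipid-anchored ligand, had the highest level per length of the 7 genes and was the only receptor gene with a lower mean in KO cells. The gene (ENSMUSG00000015355.13) lies on the plus strand of chromosome 1 from 171682009 to 171705258. WT samples were at 104, 104, 108 and 97.9 CPM and KO samples at 79.9, 106, 88.5 and 88.3 CPM. KO sample S6 was within the WT range and the other 3 were below it. The means were 104 ± 4.15 CPM (SD, n = 4) and 90.6 ± 10.9 CPM (SD, n = 4), and the log2 fold change was -0.19 (SE 0.11, 95% interval -0.42 to 0.03, adjusted p = 0.292; exact two-sided permutation test, p = 0.114).

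*Sh2d1a* encodes SAP, the adaptor that most of these receptors use. The gene (ENSMUSG00000005696.11) lies outside the receptor cluster, on the plus strand of chromosome X from 42502453 to 42529330. WT samples were at 19.5, 25.8, 29.5 and 18.6 CPM and KO samples at 23.8, 22.8, 21.1 and 28.5 CPM. The KO samples all lay within the WT range. The means were 23.3 ± 5.19 CPM (SD, n = 4) and 24.0 ± 3.18 CPM (SD, n = 4), with a log2 fold change of 0.05 (SE 0.18, adjusted p = 0.923), and the 95% interval of -0.34 to 0.44 did not reach a 1.5-fold change in either direction. Of its 5505 exon bases, 1465 overlap exons of *Tenm1* on the opposite strand, which had 19 counts in all 8 samples together against 3109 for *Sh2d1a*.

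To compare levels between genes, counts were also divided by exon length (RPKM, which is CPM per kilobase of exon, from the same TMM-scaled libraries). In WT cells the order of mean levels was *Cd48* at 87.1 RPKM, *Slamf7* at 28.5, *Ly9* at 15.8, *Cd84* at 13.1, *Slamf1* at 13.0, *Sh2d1a* at 4.24 and *Slamf6* at 3.62 RPKM. Samples of neighboring genes in this order overlapped for *Cd84* and *Slamf1* and for *Sh2d1a* and *Slamf6*. In KO cells the order was *Cd48* at 76.2 RPKM, *Slamf7* at 35.5, *Ly9* at 22.4, *Slamf1* at 20.2, *Cd84* at 18.1, *Slamf6* at 10.3 and *Sh2d1a* at 4.37 RPKM, and only *Ly9* and *Slamf1* overlapped as neighbors. Per length, *Slamf6* thus moved from the lowest of the 7 mean levels in WT cells to a level above *Sh2d1a* in every KO sample. This order depends on the exon lengths used, 10832 bases for *Slamf6* and 5505 for *Sh2d1a*. In CPM, *Slamf6* was above *Sh2d1a* in every WT sample as well.

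The 6 receptors summed to 161 ± 3.50 RPKM (SD, n = 4) in WT and 183 ± 13.3 RPKM (SD, n = 4) in KO cells, and each KO sum was above each WT sum. Within this sum, *Cd48* held 53.4%, 55.2%, 55.4% and 52.3% in the WT samples and 39.9%, 45.2%, 42.6% and 38.9% in the KO samples. *Slamf6* held 1.59%, 2.57%, 2.92% and 1.91% in the WT samples and 6.08%, 5.12%, 5.05% and 6.29% in the KO samples. The groups did not overlap for either share. The share of *Slamf1* went from 8.04% ± 1.27 to 11.1% ± 0.758 (SD, n = 4 each) and that of *Cd84* from 8.11% ± 0.488 to 9.96% ± 0.984 (SD, n = 4 each), again without overlap. The shares of *Ly9* (9.83% ± 0.563 and 12.2% ± 1.44, SD, n = 4 each) and *Slamf7* (17.7% ± 1.89 and 19.5% ± 2.00, SD, n = 4 each) overlapped between the groups. Such shares sum to a whole, so a rise of one is a fall of others.

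**Figure D2:**
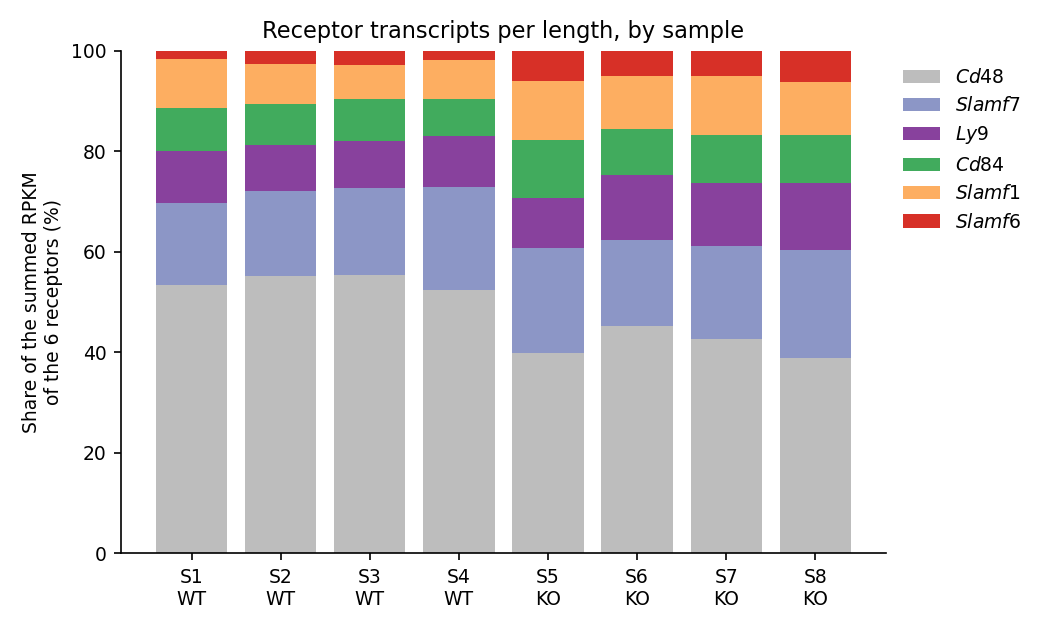
Share of each receptor gene in the summed RPKM of the 6 receptors (percent, vertical axis) for the 8 samples (horizontal axis), stacked in a bar per sample. *Cd48* made up 52.3% to 55.4% of each WT bar and 38.9% to 45.2% of each KO bar, and *Slamf6*, at the top, 1.59% to 2.92% of the WT and 5.05% to 6.29% of the KO bars.

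The 6 receptor genes lie within 364.5 kb of chromosome 1, in the order *Ly9*, *Slamf7*, *Cd48*, *Slamf1*, *Cd84* and *Slamf6*, with *Ly9* and *Slamf7* on the minus strand and the others on the plus strand. The log2 fold changes along this order were 0.50, 0.32, -0.19, 0.64, 0.47 and 1.51. *Cd48*, the only gene of these 6 with a value below 0, lies between *Slamf7* and *Slamf1*, and *Slamf6* is at the end of the cluster. *Gm10521*, a further protein-coding gene annotated between *Cd84* and *Slamf6*, was at 4.45 CPM in WT and 6.76 CPM in KO cells (log2 fold change 0.60, SE 0.32, adjusted p = 0.275). *Cd244a*, a receptor gene of the family described further on, spans *Ly9* on the opposite strand, from 171559193 to 171609746, with 0 shared exon bases, and was called lower with a log2 fold change of -1.48.

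**Figure D3:**
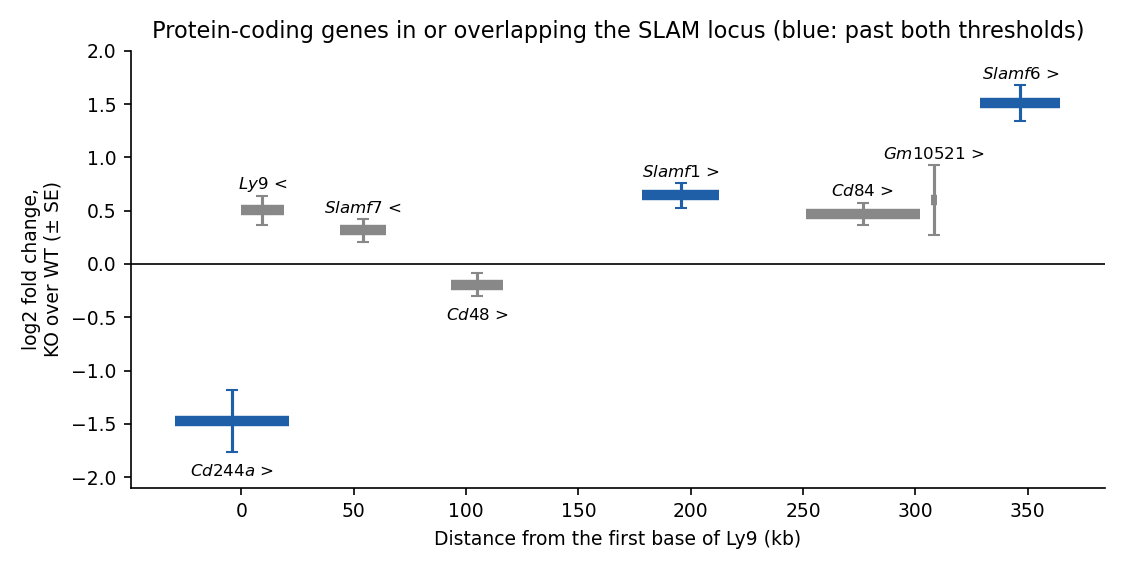
log2 fold change of KO over WT (vertical axis, error bars ± SE) for the protein-coding genes in or overlapping the SLAM locus, each drawn as a bar over its extent in kb from the first base of *Ly9* (horizontal axis); arrowheads beside the names give the strand and blue marks a fold above 1.5 with an adjusted p under 0.01. *Slamf6*, at the right end, had a log2 fold change of 1.51, *Slamf1* of 0.64, and *Cd48* (-0.19) and *Cd244a* (-1.48), at the left end, were below 0.

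Further genes of the family, the ligand-binding partners and the related adaptors were compared with the same test. Of 6 such genes 4 were tested, of which *Cd2* was called higher, *Cd244a* and *Slamf9* were called lower, and *Slamf8* was not called, with a median log2 fold change of -1.79. *Cd2* and *Cd244a* encode the partners of CD48. *Cd2* was at 147, 150, 137 and 144 CPM in WT samples and 225, 264, 289 and 226 CPM in KO samples. The groups were far apart, with a log2 fold change of 0.80 (SE 0.10, adjusted p = 6.73e-05). *Cd244a*, a SLAM receptor also known as 2B4, was at 19.4, 27.2, 34.7 and 19.3 CPM in WT samples and 15.8, 7.34, 7.25 and 5.90 CPM in KO samples. The groups did not overlap, with a log2 fold change of -1.48 (SE 0.29, adjusted p = 0.00294).

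*Slamf8* and *Slamf9*, family members known mainly from myeloid cells, were low throughout. *Slamf9* was at 3.25, 3.10, 11.5 and 5.43 CPM in WT samples and 1.90, 0.564, 0.916 and 0.913 CPM in KO samples (log2 fold change -2.42, SE 0.56, adjusted p = 0.00909). Its highest level was in S3, which also had the highest macrophage marker score. S3 was the highest WT sample of *Cd244a*, *Slamf8*, *Sh2d1b1*, *Slamf6*, *Cd48* and *Sh2d1a* too, and the lowest of *Slamf1* and *Cd2*. A link of these levels to the score was not tested. *Slamf8* was at 2.63 to 3.34 CPM in WT and 0.393 to 1.37 CPM in KO samples (log2 fold change -2.11, adjusted p = 0.0474). *Sh2d1b1*, which encodes EAT-2, was not tested for its low counts (1, 35, 72 and 30 in WT and 11, 0, 0 and 0 in KO samples), and its close copy *Sh2d1b2* had 0 counts in every sample. With the macrophage marker score as a covariate, none of these genes was called: the log2 fold change was 0.64 for *Cd2* (adjusted p = 0.409), -2.04e-05 for *Cd244a* (adjusted p = 1) and 0.15 for *Slamf9* (adjusted p = 0.986). As the score did not overlap between the groups, the fit with this covariate can hardly tell it from the genotype. The call of *Cd244a* was lost without S2, S3, S6 or S7 (adjusted p = 0.0126, 0.0152, 0.0125 and 0.0131), and that of *Slamf9* without S2, S3, S4, S6, S7 or S8, with adjusted p between 0.0106 and 0.0763.

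Downstream of the receptors, 16 signaling genes were all tested, of which 0 were called higher and 1 was called lower. Their log2 fold changes ran from -0.62 to 0.40 with a median of -0.01. The gene called lower was *Ptpn6*, which encodes the phosphatase SHP-1. It was at 229, 260, 266 and 288 CPM in WT samples and 218, 131, 176 and 152 CPM in KO samples. The groups did not overlap, with S5 the nearest to the WT samples, and the log2 fold change was -0.62 (SE 0.13, adjusted p = 0.00540). Its fold is close to the threshold, and the call was lost with GC content offsets, with the macrophage covariate and without any of S2, S3, S4, S6, S7 and S8, with adjusted p of 0.0142 to 0.0225 in the latter 6.

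The kinases next to SAP did not pass the call. *Fyn*, the kinase that SAP recruits, was at 201 to 231 CPM in WT and 149 to 235 CPM in KO samples (log2 fold change -0.24, SE 0.12, adjusted p = 0.252). *Lck*, the Src family kinase of the T cell receptor and the member of the list with the highest level, was at 528 to 560 CPM in WT and 486 to 562 CPM in KO samples (log2 fold change -0.05, SE 0.09, adjusted p = 0.813). *Csk*, which inhibits Src family kinases, was at 163 to 209 CPM in WT and 126 to 166 CPM in KO samples (log2 fold change -0.47, SE 0.11, adjusted p = 0.0110). *Ptpn11*, which encodes SHP-2, was at 120 to 126 CPM in WT and 82.4 to 106 CPM in KO samples, without overlap (log2 fold change -0.36, adjusted p = 0.0318). *Plcg1*, of the same list, went the other way without overlap, at 348 to 393 CPM in WT and 399 to 449 CPM in KO samples (log2 fold change 0.21, adjusted p = 0.150). Of all tested genes, 8.27% had every KO sample below every WT sample and 8.99% had every KO sample above.

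**Figure D4:**
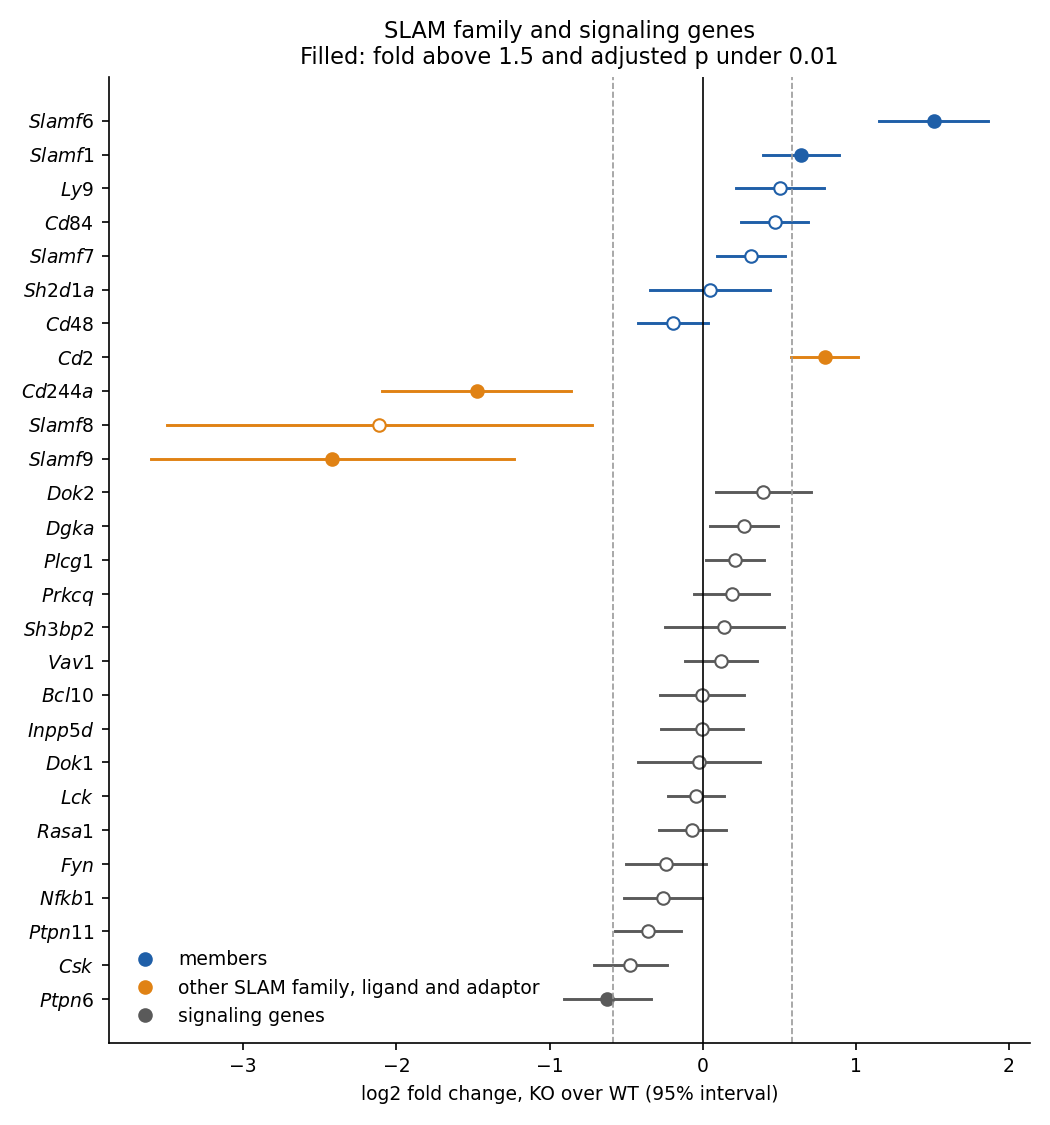
log2 fold change of KO over WT with its 95% interval (horizontal axis) for each tested gene (vertical axis) of the 7 members, the other SLAM family, ligand and adaptor genes and the signaling genes; filled points passed both thresholds and dashed lines mark 1.5-fold. The members ran from -0.19 (*Cd48*) to 1.51 (*Slamf6*), and the signaling genes from -0.62 (*Ptpn6*) to 0.40.

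To place the called receptors among all genes, each gene's log2 CPM over the 8 samples was centered at its mean and compared by the root mean square difference with 10931 genes of mean log2 CPM above 2. For *Slamf6*, the closest profiles were those of *Pecam1* (difference 0.157), which encodes the adhesion molecule CD31, *Gm8233* (0.188) and *Gm2808* (0.193), with log2 fold changes of 1.48, 1.67 and 1.80. For *Slamf1*, the closest were *Resf1* (0.0881), *Hivep2* (0.0893) and *Fkbp5* (0.0893), with log2 fold changes of 0.58, 0.57 and 0.54. The points share their libraries, and no test was made of this likeness.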

How the data were processed

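RNA of sorted CD8+CD44+PD-1+ TILs was compared between WT and KO (4 samples each). Alignment by the authors used STAR and GRCm38, and featureCounts gave the raw counts per GENCODE gene that they deposited in 1 table. Their GC content correction was not applied in the main test. The study's PCA plot names which columns are WT and which are KO, and replicate numbers could not be matched. Whether counting used the strand is not given in the sources used here.

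Counts were tested with edgeR 4.0.16 in R 4.3.3 (filterByExpr, TMM, glmQLFit, glmQLFTest; no covariates; 15378 genes). SE is the absolute log2 fold change divided by the root of F. Single genes were also tested by exact permutation over 70 arrangements, using log2 CPM (prior count 2). Simulated data were used to check the fit. GENCODE M21 (GRCm38) gave exon lengths and positions and matched 55154 of 55335 IDs. Intervals of fold changes include the spread between samples, and floors of 3 counts cover counting error only.

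The members and lists were chosen with earlier results of these data known. Named genes were the members, *Kdm1a*, called genes of both pathway lists and the undetected or highest of the others. Coding genes of the locus, the 3 closest profiles of each called member and cell type markers were also named. *Fyn*, *Csk*, *Ptpn11* and *Plcg1* were added after their values were seen. Alternatives were other scalings and filters, DESeq2 1.42.0, GC content offsets (mgcv 1.9.3), adjusted p under 0.05, a macrophage score covariate and leaving out each sample.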

Additional observations from a re-analysis of the deposited data

Results flagged for a closer look

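In 1 of 56 groups of 4 samples, 1 sample lay far from the others: *Dok2*, which encodes an adaptor that inhibits Ras signaling, was at log2 CPM 5.90 in KO sample S5 and at 6.46 to 6.56 in the other 3 KO samples, a gap of 0.835 of the whole range. Chance alone would flag about 1 in 20 groups, or 2.8 of the 56.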

How the results depend on the processing

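No paired analysis was possible because the columns carry no replicate numbers. Scaling choices moved the median log2 fold change of all genes by at most 0.02. *Slamf6* stayed called under every alternative except the macrophage covariate (2.16, adjusted p = 0.0168), with log2 fold changes of 1.38 to 1.67 when 1 sample was left out. *Slamf1* lost its call with GC content offsets (0.58), the macrophage covariate (0.17) and without S3 (range without 1 sample 0.57 to 0.76). *Cd84* passed an adjusted p of 0.01 without S1 but in none of the other 7 fits without 1 sample. *Ly9* ranged from 0.44 to 0.62 without 1 sample. Members called higher numbered 1 with GC content offsets, 0 with the macrophage covariate and 1 to 3 without 1 sample. *Sh2d1a* turned to -0.026 with GC content offsets and ranged from -0.046 to 0.18 without 1 sample. It was at 0.47 with the macrophage covariate (adjusted p = 0.782). Of the other SLAM family genes 0 were called with the macrophage covariate, where *Slamf9* was at 0.15, *Cd244a* at -2.04e-05 and *Cd2* at 0.64. Without 1 sample, 1 to 3 of them were called. With DESeq2, without the filter on low counts and at an adjusted p under 0.05, 4 were called. *Slamf8* passed both thresholds with DESeq2 (-2.13, adjusted p = 0.00531). Of the signaling genes 0 were called with either GC content offsets or the macrophage covariate and 0 to 1 without 1 sample. Over all genes, 447 were called higher and 306 lower. DESeq2 gave 617 higher and 461 lower, and leaving out the filter on low counts 642 higher and 531 lower. At an adjusted p under 0.05, 695 were higher and 551 lower. With the macrophage covariate, 32 were higher and 3 lower. Without 1 sample, 347 to 452 were higher and 199 to 303 lower. The macrophage score did not overlap between WT and KO, so the fit with this covariate can hardly tell it from the genotype. The causes of these changes were not tested. The differences of *Cd48* and *Slamf7* did not pass the test at 4 samples a group.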
